A study of Mus musculus with 8 samples.

Results

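Fatty acid oxidation and the energy supply of the heart were followed through 37 genes in mouse embryonic fibroblasts undergoing direct reprogramming towards cardiomyocytes. The genes were picked by name, with earlier results of these data known. Each matched 1 row of the 50600 genes that the 3 tables of comparisons list. They cover uptake and activation of fatty acids, the carnitine shuttle, the steps of beta-oxidation, the nuclear receptors and coactivators of these genes, the control of pyruvate entry, creatine kinases and myoglobin.

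All cells were C57BL/6 embryonic fibroblasts carrying retroviruses for GHMT, the cardiac transcription factors Gata4, Hand2, Mef2c and Tbx5, so every group including the controls received the factors. They were kept for 7 days in StemPro-34 serum-free medium, renewed at intervals, with 0.1% ethanol, 1% DMSO, 5 µM I-CBP112 or 5 µM C646. I-CBP112 binds the bromodomains of the coactivators CBP and p300, and C646 inhibits the acetyltransferase activity of the same proteins. RNA of 2 libraries a group, 8 in all, was sequenced, and each treatment was compared with a reference that is unnamed in the tables and is read here as ethanol, the group without a table of its own. Neither the solvent of the inhibitors nor the share of cells that took up the factors is stated in the sources used here. In every group the libraries are labelled as replicates 2 and 3. What these numbers stand for is not stated, nor whether libraries of the same number were paired in the authors' fit. No source says that the libraries of a group came from separate cultures. The p-values rest on the spread between these libraries, taken as 1 dispersion per gene over the 4 groups, and that spread may be technical.

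Long-chain fatty acids are activated to acyl-CoA at the outer mitochondrial membrane, carried inside as carnitine esters, and shortened in a repeating cycle of dehydrogenation, hydration, a further dehydrogenation and thiolysis. Electrons from the first step reach the respiratory chain through the electron transfer flavoprotein. The adult heart draws most of its energy from this pathway, the fetal heart relies more on glucose and lactate, and the nuclear receptors PPARα and ERR with their coactivator PGC-1α drive the genes of the pathway in maturing heart muscle.

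The depth was ample for most of these genes: normalised counts, averaged over the 8 libraries, summed to 37997801 per library, and the median standard error of a log2 fold change was 0.185. Values of single libraries are not given in the tables, so group means were rebuilt from the deposited overall mean and the 3 deposited fold changes, and their errors are standard errors estimated from the deposited ones over 2 libraries a group. Whether single libraries of 2 groups overlapped cannot be told from such values. Fibroblast markers were abundant in every group and summed to 1235630 normalised counts in ethanol, 818726 in DMSO, 774609 under I-CBP112 and 1216210 under C646. Cardiomyocyte markers summed to 235262, 544740, 528946 and 237337 in the same order. In the authors' deposited table, 15 of 20 tested rose in DMSO, 19 of 20 under I-CBP112 and 0 under C646. Among all tested genes, 8.07% rose in DMSO and 4.65% under I-CBP112. Fewer cells of a type and less RNA per cell cannot be told apart in such bulk samples. The part of these marker changes in the results below was not tested.

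Promoter sequences are shown for 4 members and for the shared start region of a gene pair. They are a selection from the genes with large or repeated changes, and others, such as Fabp3, are not printed. Acadm was added as the member that holds an ERR element. All are from RefSeq on mouse build GRCm38.p6, 5′ to 3′ on the gene's own strand, and 31 of the 37 genes matched a RefSeq window of 250 bases before to 50 bases after a start. Hadha lies on the minus and Hadhb on the plus strand of chromosome 5, with annotated starts 86 bases apart, and the bases between them, chr5:30155163-30155247 on the plus strand, are the upstream sequence of both genes:
Hadha-Hadhb: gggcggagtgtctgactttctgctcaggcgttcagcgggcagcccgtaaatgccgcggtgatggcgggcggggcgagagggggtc
The 250 bases before the start of Ppargc1a are chr5:51567726-51567975, minus strand:
Ppargc1a: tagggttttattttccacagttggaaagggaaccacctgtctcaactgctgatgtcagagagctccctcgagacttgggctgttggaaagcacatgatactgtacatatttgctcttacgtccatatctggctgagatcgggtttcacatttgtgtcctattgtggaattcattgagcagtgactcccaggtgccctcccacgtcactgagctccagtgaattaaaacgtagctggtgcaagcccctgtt
For Mb, RefSeq lists several starts, and the window at chr15:77022788-77023037, minus strand, holds no annotated exon:
Mb: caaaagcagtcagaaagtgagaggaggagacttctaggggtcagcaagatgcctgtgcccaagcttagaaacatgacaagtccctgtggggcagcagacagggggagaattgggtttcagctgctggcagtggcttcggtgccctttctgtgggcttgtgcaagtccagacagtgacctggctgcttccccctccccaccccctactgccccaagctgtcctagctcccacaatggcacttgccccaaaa
For Ckb the window is chr12:111672339-111672588, minus strand, with the match to the MEF2 consensus in capitals; this match overlaps a TATA-type stretch:
Ckb: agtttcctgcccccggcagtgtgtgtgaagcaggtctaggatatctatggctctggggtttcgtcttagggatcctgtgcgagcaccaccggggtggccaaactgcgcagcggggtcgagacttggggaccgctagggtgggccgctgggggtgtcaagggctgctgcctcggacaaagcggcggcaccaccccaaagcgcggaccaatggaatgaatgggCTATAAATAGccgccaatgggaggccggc
For Acadm the window is chr3:153944644-153944893, minus strand, with the reverse complement of the ERR element AAGGTCA in capitals:
Acadm: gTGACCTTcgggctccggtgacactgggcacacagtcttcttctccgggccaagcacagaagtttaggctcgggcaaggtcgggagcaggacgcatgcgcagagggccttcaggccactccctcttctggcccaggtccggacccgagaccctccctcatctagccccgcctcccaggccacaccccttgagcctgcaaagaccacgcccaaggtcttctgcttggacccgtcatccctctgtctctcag

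Each motif was searched on both strands of the full windows, which span 300 bases, and is given as a share of all 32851 windows and, since a gene can have several, of all 27025 genes. AAGGTCA was found in 4.72% of windows, 5.38% of genes and 1 of the 31 members matched, Acadm. The MEF2 consensus was in 3.19% of windows, 3.70% of genes and 2 members, Ckb and Esrrg. The direct repeat bound by PPAR, AGGTCANAGGTCA, was in 0.0396% of windows, 0.0481% of genes and no member. A motif of GATA factors, AGATAA, was in 11.2% of windows and 12.7% of genes, with Acadvl and Pdk4 among them, and the T-box motif AGGTGT was in 13.7% and 15.7%, with Ckmt2 and Esrrg. The E-box CANNTG, which is short and common, was in 72.3% of windows, 75.0% of genes and 23 members. Such matches describe letters only.

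With ethanol, most genes of the beta-oxidation steps were among the members with more mRNA. Levels were ranked among the members only and were not set against those of other genes. Per kilobase of transcript, Acaa2, a thiolase of the mitochondrial matrix, was the highest at 11603 ± 965 normalised counts, clear of the next gene, Etfb, at 2502 ± 203. Cpt1a at 1856 ± 109, Acadvl at 1854 ± 135 and Hadhb at 1735 ± 103 followed and were not separated by more than their errors. The muscle forms stood far lower: Cpt1b, the carnitine palmitoyltransferase of heart and muscle, had 82.1 ± 11.4 per kilobase, and Cpt1a, the form of liver and fibroblasts, was more abundant in every group. Ckb, the brain-type creatine kinase, had 1200.1 ± 122, while Ckm, the muscle-type enzyme, had 2.57 ± 1.4 and Ckmt2, its mitochondrial partner of striated muscle, had 1.6 ± 1.97. The insulin-regulated glucose transporter Slc2a4 had 9.08 ± 3.06, and the orphan receptors Esrrg and Esrrb had 4.85 ± 1.84 and 0.381 ± 0.418. These 5 genes of lowest level, Slc2a4, Esrrg, Ckm, Ckmt2 and Esrrb, had overall mean counts from 1.38 to 22.1 and received no adjusted p in the DMSO and I-CBP112 tables.

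**Figure D1:**
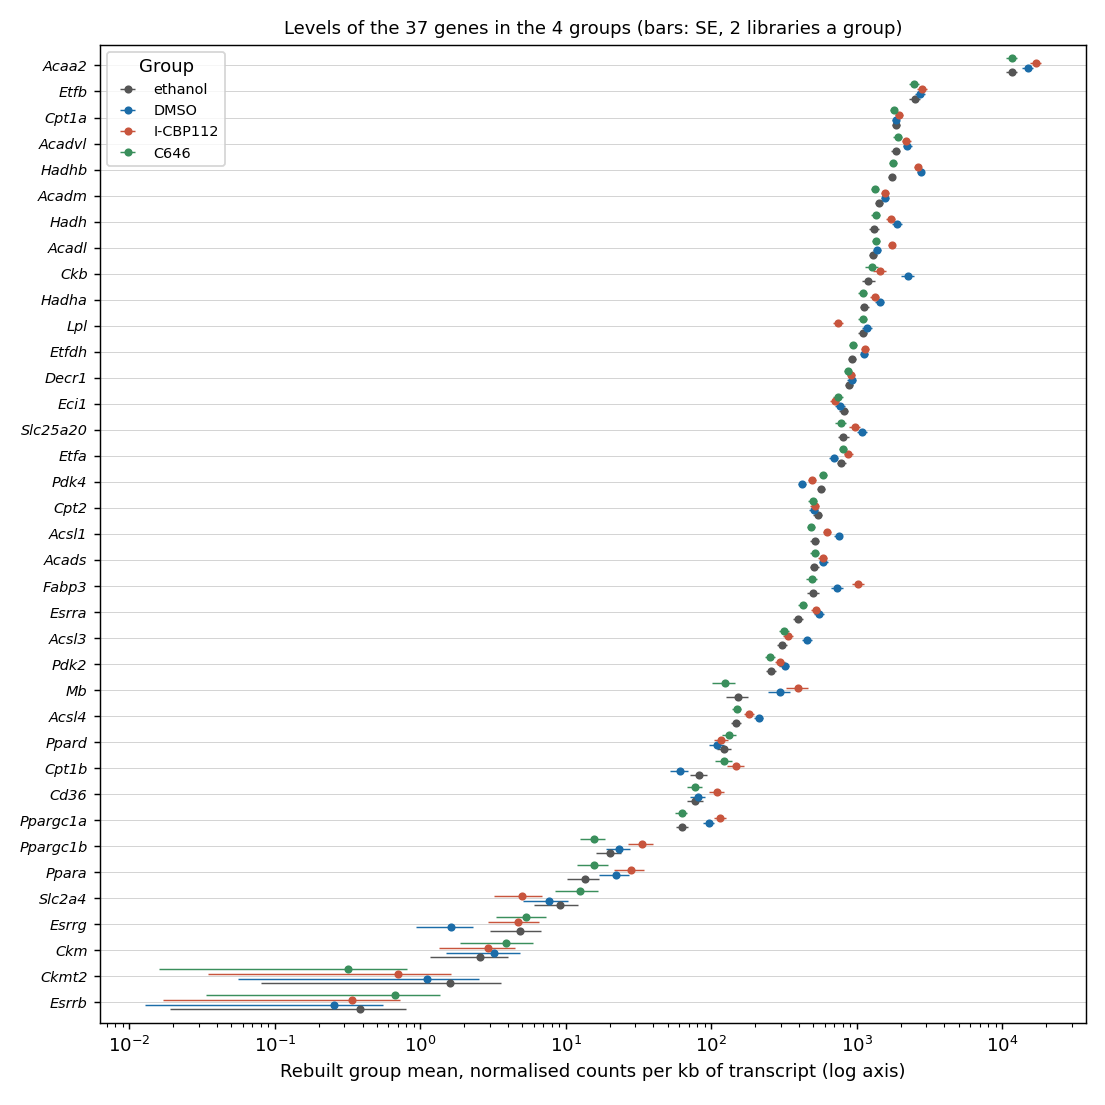
Rebuilt group means of the 37 genes in normalised counts per kilobase of transcript (log axis), ordered by the ethanol level; points are the 4 groups and bars are standard errors over 2 libraries a group. Acaa2 is highest in every group, and Slc2a4, Esrrg, Ckm, Ckmt2 and Esrrb are at the bottom, and for Ckmt2 and Esrrb the ethanol errors exceed the values.

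Of the 32 genes with an adjusted p, 10 rose with DMSO and 1 fell (DESeq2 Wald test, adjusted p below 0.05, in the authors' deposited table). The background was 8.07% of the 14830 tested genes higher and 7.9% lower. With I-CBP112, 7 rose and 1 fell, against 4.65% and 5.25% of tested genes. With C646, 0 of 37 rose or fell, against 0.00292% higher and 0.00292% lower, which is 1 gene each of 34250; at an unadjusted p below 0.05, 1 member and 199 genes in all passed in the authors' deposited table. The median log2 fold change of the 32 members was 0.27 for DMSO, 0.26 for I-CBP112 and -0.00 for C646, and that of all tested genes was 0.03, 0.01 and 0.00. Positive values were seen for 25 of the 32 members in DMSO, 27 under I-CBP112 and 15 under C646. The shares of all tested genes with positive values were 54.4%, 52.3% and 51.6% in the same order. Fabp3, Hadhb, Ppargc1a and Mb passed with both DMSO and I-CBP112, and 15 members passed with either. The matching shares of all tested genes are not given here, so this overlap is not read as particular to the members. The 3 comparisons share their ethanol libraries, so their values are given side by side and are not independent.

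**Figure D2:**
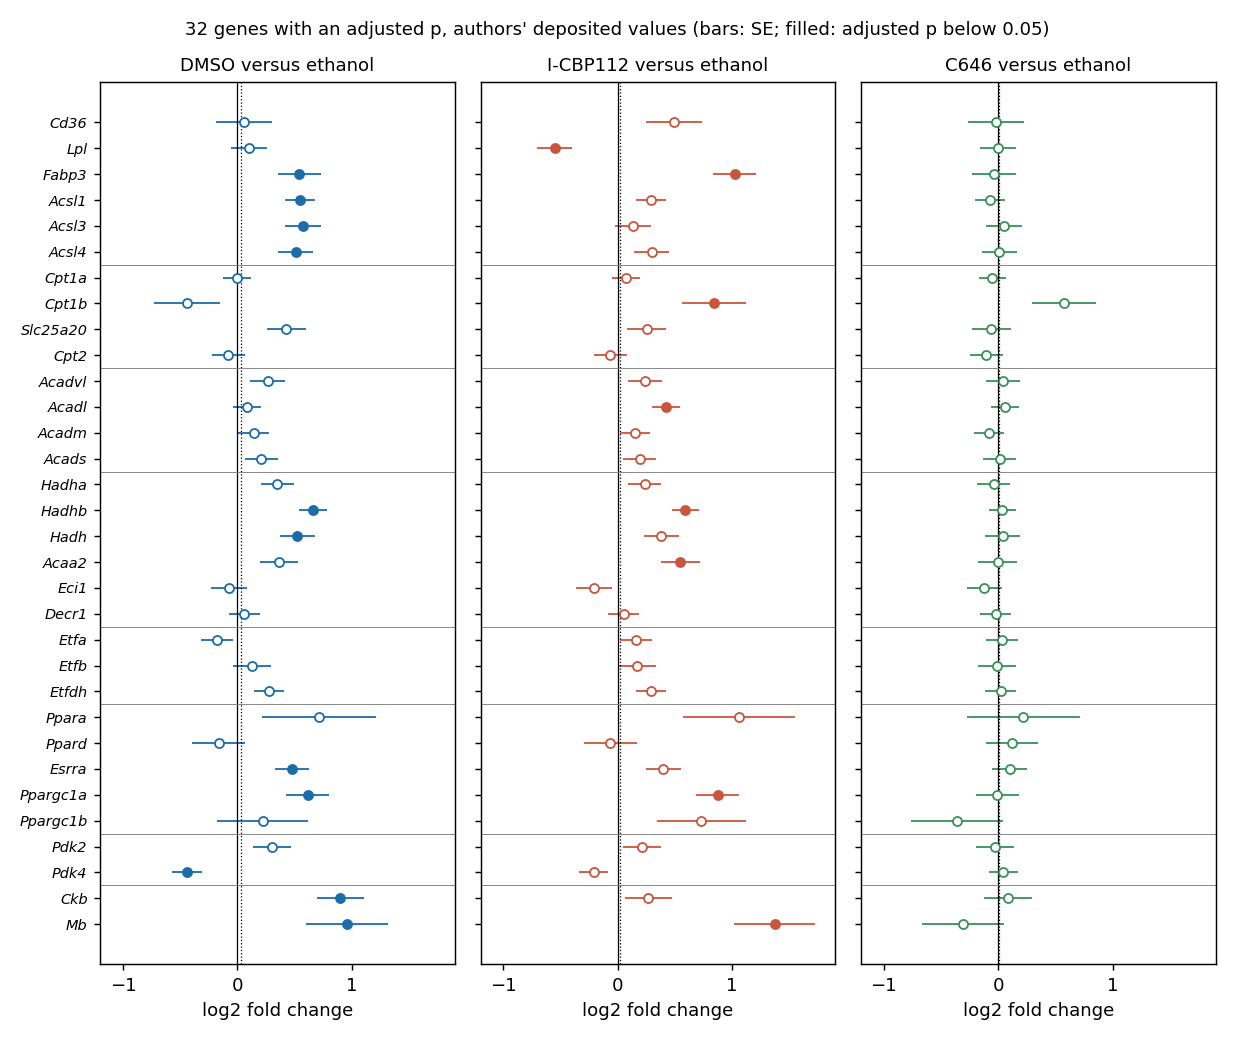
Log2 fold changes of the 32 genes with an adjusted p against ethanol, 1 panel a treatment, from the authors' deposited table; bars are standard errors, filled points have an adjusted p below 0.05, grey lines separate the roles and the dotted line is the median of all tested genes. With C646 the points lie between -0.36 and 0.57, and none is filled.

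Among the 6 genes of uptake and activation, 4 rose with DMSO, while with I-CBP112 1 rose and 1 fell. Fabp3 (ENSMUSG00000028773.8, chr4:130308595-130315463, plus strand), the fatty acid carrier of heart muscle cytoplasm, had 413 ± 38.5 normalised counts in ethanol, 601 ± 54.9 in DMSO, 839 ± 75.4 under I-CBP112 and 403 ± 37.7 under C646. Its log2 fold change in the authors' deposited table was 0.54 ± 0.19 with DMSO (DESeq2 adjusted p = 0.0295) and 1.02 ± 0.19 with I-CBP112 (DESeq2 adjusted p = 2.68e-06), a 2.03-fold rise. The mean of Fabp3 was thus highest with I-CBP112, though its difference from DMSO did not pass, and ethanol and C646 were close together at the bottom. Its neighbour Zcchc17, which shares 81 exon bases on the opposite strand, had 0.39 ± 0.18 and 0.19 ± 0.18 for the same comparisons in the authors' deposited table. Whether strand entered the counting is not stated by the sources.

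The 3 long-chain acyl-CoA synthetases, which activate fatty acids, all rose with DMSO. Acsl1, the main form of heart, had 1997 ± 126 normalised counts in ethanol, 2914 ± 183 in DMSO, 2439 ± 154 under I-CBP112 and 1899 ± 120.4 under C646. Acsl3, found on the endoplasmic reticulum and lipid droplets, had 1209 ± 93, 1801 ± 137, 1328 ± 102 and 1250.1 ± 96.1 in the same order. Acsl4, which prefers arachidonic acid, had 782 ± 58.9, 1114 ± 82.6, 961 ± 71.7 and 787 ± 59.3. By their means, all 3 were highest with DMSO and next with I-CBP112. None passed in the comparison of I-CBP112 with DMSO described below. The Acsl3 means with I-CBP112, ethanol and C646 overlapped in their errors. With DMSO the log2 fold change was 0.55 ± 0.13 for Acsl1, 0.58 ± 0.16 for Acsl3 and 0.51 ± 0.15 for Acsl4 in the authors' deposited table, with DESeq2 adjusted p = 0.000387, 0.00287 and 0.00833. Their I-CBP112 values in the authors' deposited table, 0.29 ± 0.13, 0.14 ± 0.16 and 0.30 ± 0.15, did not pass.

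Lpl (ENSMUSG00000015568.16, chr8:68880491-68907448, plus strand), the lipoprotein lipase that frees fatty acids from circulating triglyceride, fell with I-CBP112. It had 4506 ± 339 normalised counts in ethanol, 4832 ± 364 in DMSO, 3070.2 ± 232 under I-CBP112 and 4499.8 ± 339 under C646. Against ethanol it fell by 0.55 ± 0.15 on the log2 scale with I-CBP112 in the authors' deposited table (DESeq2 adjusted p = 0.00553). Macrophages and adipocytes also make this enzyme. Of 9 macrophage markers tested, 3 fell with I-CBP112 and 0 with DMSO, with medians of -0.53 and -0.32. The 10 markers of the list summed to 3769 normalised counts in ethanol, 3759 in DMSO, 3084 under I-CBP112 and 3557 under C646. Lyz2 was the most abundant of them, with an overall mean of 2069. Of all tested genes, 5.25% fell with I-CBP112 and 7.9% with DMSO. Of 8 adipocyte markers, 3 fell with I-CBP112 and 4 with DMSO, with medians of -0.84 and -0.81. Their sums were 7429, 6595, 7065 and 7399, carried mostly by Adipor2, a receptor also made outside fat, with a mean of 5070.2 and log2 fold changes of 0.02 ± 0.12 with DMSO and 0.09 ± 0.12 with I-CBP112 in the authors' deposited table. No macrophage or adipocyte marker was at 0 in all libraries. The part of these cells in the Lpl value was not tested. Cd36, the fatty acid translocase, had 264 ± 31.6, 275 ± 32.8, 371 ± 43.6 and 261 ± 31.2 in the order of the groups above, and its I-CBP112 log2 fold change of 0.49 ± 0.24 in the authors' deposited table did not pass (DESeq2 adjusted p = 0.235).

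In the carnitine shuttle the muscle isoform moved and the other 3 genes did not pass against ethanol. Cpt1b (ENSMUSG00000078937.8, chr15:89416405-89425863, minus strand) had 238 ± 33 normalised counts in ethanol, 175 ± 24.8 in DMSO, 426 ± 57.7 under I-CBP112 and 354 ± 48.2 under C646. The 2 inhibitor groups were above ethanol and the DMSO group was below it. In the authors' deposited table its log2 fold change was 0.84 ± 0.28 with I-CBP112 (DESeq2 adjusted p = 0.0314), a 1.79-fold rise, -0.44 ± 0.29 with DMSO (adjusted p = 0.342) and 0.57 ± 0.28 with C646 (adjusted p = 1). An annotated read-through gene, Gm44502, shares 2744 exon bases with Cpt1b on the same strand. It is not among the 50600 genes listed, so it has no count here and a split of counts between the pair cannot be checked. Chkb, the adjacent gene, had -0.17 ± 0.15, 0.16 ± 0.15 and -0.02 ± 0.15 for DMSO, I-CBP112 and C646 in the authors' deposited table.

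Cpt1a, the isoform that carried most of the signal, stayed within 7736 and 8422 normalised counts over the 4 groups. In log2 terms it had -0.00 ± 0.12 in DMSO, 0.07 ± 0.12 under I-CBP112 and -0.05 ± 0.12 under C646 in the authors' deposited table, and all 3 intervals at 95% excluded a 1.5-fold change in either direction. Slc25a20, the carnitine-acylcarnitine translocase of the inner membrane, had 0.43 ± 0.17 with DMSO in the authors' deposited table (DESeq2 adjusted p = 0.0698). Cpt2, which rebuilds acyl-CoA inside, had -0.08 ± 0.14 and -0.07 ± 0.14 with DMSO and I-CBP112 in the authors' deposited table.

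The 4 acyl-CoA dehydrogenases, which take the first step at very long, long, medium and short chain length, differed little. Acadl, the long-chain enzyme, had 2482 ± 148 normalised counts in ethanol, 2635 ± 157 in DMSO, 3322 ± 197 under I-CBP112 and 2592 ± 154 under C646. It was the one that rose, by 0.42 ± 0.12 on the log2 scale with I-CBP112 in the authors' deposited table (DESeq2 adjusted p = 0.00831), beside 0.09 ± 0.12 with DMSO. Acadvl, Acadm and Acads had 0.26 ± 0.15, 0.14 ± 0.13 and 0.21 ± 0.14 with DMSO and 0.24 ± 0.15, 0.15 ± 0.13 and 0.19 ± 0.14 with I-CBP112 in the authors' deposited table, and none passed. Acadvl shares 1151 exon bases with Dvl2 on the opposite strand. Acadm, whose promoter window holds the ERR element shown above, was among those that did not pass.

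Of the 6 genes of the later steps, Hadhb and Hadh rose with DMSO, and Hadhb and Acaa2 rose with I-CBP112. Hadhb (ENSMUSG00000059447.13, chr5:30155248-30184593, plus strand), the thiolase subunit of the mitochondrial trifunctional protein, had 3554 ± 210.0 normalised counts in ethanol, 5613 ± 329 in DMSO, 5352 ± 314 under I-CBP112 and 3645 ± 215 under C646. Its groups formed 2 levels, DMSO with I-CBP112 above and ethanol with C646 below. The log2 fold change in the authors' deposited table was 0.66 ± 0.12 with DMSO (DESeq2 adjusted p = 1.4e-06), a 1.58-fold rise, and 0.59 ± 0.12 with I-CBP112 (DESeq2 adjusted p = 3.65e-05), a 1.51-fold rise.

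Hadha, the other subunit, is divergently transcribed from the sequence printed above and was likewise higher with DMSO and I-CBP112 than in the other groups: 4529 ± 318, 5765 ± 404, 5333 ± 374 and 4405 ± 309 normalised counts. Its log2 fold changes of 0.35 ± 0.14 and 0.24 ± 0.14 with DMSO and I-CBP112 in the authors' deposited table did not pass (DESeq2 adjusted p = 0.0812 and 0.395), and whether the 2 subunits differed from each other was not tested. Acaa2, which splits acetyl-CoA off shortened chains, had 17589.8 ± 1463, 22625 ± 1881, 25679 ± 2135 and 17517 ± 1457 normalised counts, again with ethanol and C646 lowest. In the authors' deposited table it rose by 0.55 ± 0.17 with I-CBP112 (DESeq2 adjusted p = 0.0177) and had 0.36 ± 0.17 with DMSO (adjusted p = 0.142). Hadh, the short-chain hydroxyacyl-CoA dehydrogenase, had 2352 ± 180.0, 3382 ± 257, 3063 ± 233 and 2414 ± 185 normalised counts and rose by 0.52 ± 0.16 with DMSO in the authors' deposited table (DESeq2 adjusted p = 0.00781).

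Eci1 and Decr1, the isomerase and reductase that prepare unsaturated fatty acids for the cycle, stayed near ethanol. They had log2 values of -0.07 ± 0.16 and 0.06 ± 0.13 with DMSO and of -0.21 ± 0.16 and 0.05 ± 0.13 with I-CBP112 in the authors' deposited table. Etfa and Etfb, the subunits of the electron transfer flavoprotein, and Etfdh, which passes their electrons to ubiquinone, did not pass in any comparison with ethanol. The highest of their values was 0.29 ± 0.13 for Etfdh with I-CBP112, and the lowest was -0.18 ± 0.14 for Etfa with DMSO, both in the authors' deposited table.

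Among the nuclear receptors and coactivators, Ppargc1a and Esrra rose with DMSO and Ppargc1a rose with I-CBP112. Ppargc1a (ENSMUSG00000029167.13, chr5:51454250-51567726, minus strand), which encodes PGC-1α, had 405 ± 37.8 normalised counts in ethanol, 620.5 ± 56.4 in DMSO, 743 ± 67 under I-CBP112 and 404 ± 37.6 under C646. Both DMSO and I-CBP112 lay well above the other groups, which were level. In the authors' deposited table its log2 fold change was 0.61 ± 0.19 with DMSO (DESeq2 adjusted p = 0.0103) and 0.87 ± 0.19 with I-CBP112 (DESeq2 adjusted p = 0.000105), a 1.83-fold rise. Esrra, the ERRα receptor through which PGC-1α acts on oxidative genes, had 887 ± 66.4, 1236 ± 91.1, 1169 ± 86.4 and 951 ± 70.9 normalised counts. It rose by 0.48 ± 0.15 with DMSO in the authors' deposited table (DESeq2 adjusted p = 0.0145), and its 0.40 ± 0.15 with I-CBP112 did not pass (adjusted p = 0.0769).

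Ppara, the receptor that fatty acids activate in liver and heart, was scarce, with 45.9 ± 11.3 normalised counts in ethanol, 75.3 ± 17.8 in DMSO, 95.7 ± 22.4 under I-CBP112 and 53.5 ± 13 under C646. Its log2 fold changes of 0.71 ± 0.50 and 1.06 ± 0.49 with DMSO and I-CBP112 in the authors' deposited table did not pass. Ppargc1b, the related coactivator PGC-1β, had 73 ± 14.3, 85.1 ± 16.4, 121 ± 22.8 and 57 ± 11.4 normalised counts, and its 0.73 ± 0.39 with I-CBP112 did not pass in the authors' deposited table. Standard errors for both genes were 0.39 or more. Ppard, the widely expressed PPAR, had -0.16 ± 0.23 and -0.06 ± 0.23 with DMSO and I-CBP112 in the authors' deposited table. Esrrg, the ERRγ receptor of heart muscle, had 26.1 ± 9.88, 8.69 ± 3.71, 25.3 ± 9.62 and 28.4 ± 10.7 normalised counts, lowest with DMSO, and its -1.59 ± 0.82 with DMSO in the authors' deposited table came without an adjusted p. Esrrb, a receptor best known from stem cells, had at most 2.88 ± 2.98 in a group.

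Pdk4 (ENSMUSG00000019577.6, chr6:5483351-5496309, minus strand) was the member that fell with DMSO. Its product blocks pyruvate dehydrogenase and so spares glucose when fatty acids are burned. It had 1978 ± 123 normalised counts in ethanol, 1456 ± 91.6 in DMSO, 1710.2 ± 107 under I-CBP112 and 2039 ± 127 under C646. In the authors' deposited table it fell by 0.44 ± 0.13 on the log2 scale with DMSO (DESeq2 adjusted p = 0.00585), and its -0.21 ± 0.13 with I-CBP112 did not pass (adjusted p = 0.394). Pdk2, the related kinase found in most tissues, had 0.30 ± 0.17 and 0.21 ± 0.17 in the authors' deposited table. Slc2a4, the transporter GLUT4, had between 12.7 ± 4.6 normalised counts with I-CBP112 and 31.7 ± 10.4 with C646, and its I-CBP112 log2 fold change was -0.85 ± 0.71 in the authors' deposited table, without an adjusted p.

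Ckb and Mb had the largest DMSO fold changes among the tested members. Ckb (ENSMUSG00000001270.8, chr12:111669361-111672338, minus strand), the cytosolic creatine kinase that precedes the muscle form in developing heart, had 1767 ± 179.7 normalised counts in ethanol, 3293 ± 333 in DMSO, 2127 ± 216 under I-CBP112 and 1874 ± 191 under C646. The DMSO group stood alone above the others. Its log2 fold change in the authors' deposited table was 0.90 ± 0.21 with DMSO (DESeq2 adjusted p = 0.000261), a 1.86-fold rise, and 0.27 ± 0.21 with I-CBP112 (adjusted p = 0.571). Ckm had 7.05 ± 3.84, 8.72 ± 4.63, 7.98 ± 4.28 and 10.7 ± 5.56 normalised counts, and Ckmt2 had at most 2.37 ± 2.92, so neither muscle creatine kinase was measurable well enough for a fold change.

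Mb (ENSMUSG00000018893.14, chr15:77015487-77050670, minus strand), the oxygen store of heart and slow skeletal muscle, had 168 ± 29.7 normalised counts in ethanol, 326 ± 56.3 in DMSO, 435 ± 74.6 under I-CBP112 and 136 ± 24.3 under C646. Its mean was highest with I-CBP112 and lowest with C646, though I-CBP112 against DMSO and C646 against ethanol did not pass. In the authors' deposited table its log2 fold change was 0.96 ± 0.36 with DMSO (DESeq2 adjusted p = 0.0470), a 1.94-fold rise, and 1.37 ± 0.36 with I-CBP112 (DESeq2 adjusted p = 0.00239), a 2.58-fold rise. The DMSO call lay close to the threshold and was lost when the table was centred on its median gene, with a log2 fold change of 0.92 and adjusted p = 0.0606, or scaled to totals, with 0.94 and 0.0546. Apol6, which shares 64 exon bases with Mb on the opposite strand, fell by 2.55 ± 0.22 with DMSO and fell by 1.80 ± 0.21 with I-CBP112 in the authors' deposited table. Of 6 skeletal muscle markers tested, 2 rose and 2 fell with DMSO and 2 rose with I-CBP112, with medians of 0.15 and -0.22. The shares of all tested genes were 8.07% higher and 7.9% lower with DMSO, and 4.65% and 5.25% with I-CBP112. Myod1 was at 0. The 17 markers of the list summed to 1736, 29509, 8291 and 1947 normalised counts in the order of the groups above. Myl1, with an overall mean of 9673, carried most of the sum and rose by 4.83 ± 0.13 with DMSO and 2.91 ± 0.13 with I-CBP112. With DMSO Acta1 also rose, by 1.72 ± 0.33, while Myh2 and Tnnt3 had -1.64 ± 0.37 and -2.67 ± 0.45. These fold changes are from the authors' deposited table. The part of skeletal muscle cells in the Mb value was not tested.

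With C646 the members stayed near ethanol. Of the 32 tested members, 28 had an interval at 95% that excluded a 1.5-fold change in either direction in the authors' deposited table, and the others were Cpt1b, Ppara, Ppargc1b and Mb. The median absolute log2 fold change was 0.04 for the members and 0.07 for all tested genes. Over the tested genes the Wald statistic, the fold change divided by its error, had a standard deviation of 0.608 with C646, against 2.23 with DMSO and 1.86 with I-CBP112 in the authors' deposited table; a value below 1 is less spread than the errors alone would give.

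The treatments were also set against each other, in 3 pairs, by dividing the difference of their fold changes by an error rebuilt from those in the tables, with p-values adjusted over the 14830 genes of each pair. The inhibitors were compared at the same dose and time. With I-CBP112 over C646, 6 members were higher and 1 lower, against 4.69% and 5.11% of tested genes. Fabp3 differed by 1.06 ± 0.19 (adjusted p = 1.10e-06, normal test on DESeq2 values), Mb by 1.68 ± 0.36 (adjusted p = 9.54e-05), Ppargc1a by 0.88 ± 0.19 (adjusted p = 9.11e-05) and Hadhb by 0.55 ± 0.12 (adjusted p = 0.000134). Acaa2 and Acadl were higher by 0.55 ± 0.17 and 0.36 ± 0.12, and Lpl was lower, with a difference of -0.55 ± 0.15. Ppargc1b was 1.09 ± 0.40 higher with I-CBP112 and did not pass (adjusted p = 0.0592). Cpt1b, which had positive values with both inhibitors, differed between them by 0.27 on the log2 scale, with an interval at 95% from -0.28 to 0.81. In 14 of 32 members the interval for this pair excluded a 1.5-fold difference in either direction.

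With I-CBP112 over DMSO, 1 member was higher and 2 were lower, against 4.31% and 2.66% of tested genes. Cpt1b was higher by 1.28 ± 0.28 (adjusted p = 0.000307), with an interval at 95% from 0.73 to 1.84. Lpl was lower, with a difference of -0.65 ± 0.15 (adjusted p = 0.000879), and so was Ckb, with -0.63 ± 0.21 (adjusted p = 0.0368). The Ckb call was lost when both tables were centred on their median genes, with -0.60 and adjusted p = 0.0511, and Acadl passed in its place. Fabp3 was 0.48 ± 0.18 higher with I-CBP112 and did not pass (adjusted p = 0.0984), nor did Acsl3, with -0.44 ± 0.16 (adjusted p = 0.0619). For Hadhb the difference was -0.07 with an interval from -0.30 to 0.17, so a 1.5-fold difference in either direction lay outside it; for Ppargc1a, with 0.26 ± 0.18, and Mb, with 0.41 ± 0.35, it did not.

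With C646 over DMSO, 2 members were higher and 11 lower, against 7.98% and 7.86% of tested genes. Cpt1b was higher by 1.01 ± 0.28 (adjusted p = 0.00418) and Pdk4 by 0.49 ± 0.13 (adjusted p = 0.00194). The lower members were Fabp3, the 3 acyl-CoA synthetases, Slc25a20, Hadha, Hadhb, Hadh, Ppargc1a, Ckb and Mb. Their differences ranged from -1.26 ± 0.36 for Mb (adjusted p = 0.00486) to -0.39 ± 0.14 for Hadha (adjusted p = 0.0441). The calls of Slc25a20 and Hadha were lost when the tables were centred on the median gene, with adjusted p = 0.0511 and 0.0770.

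**Figure D3:**
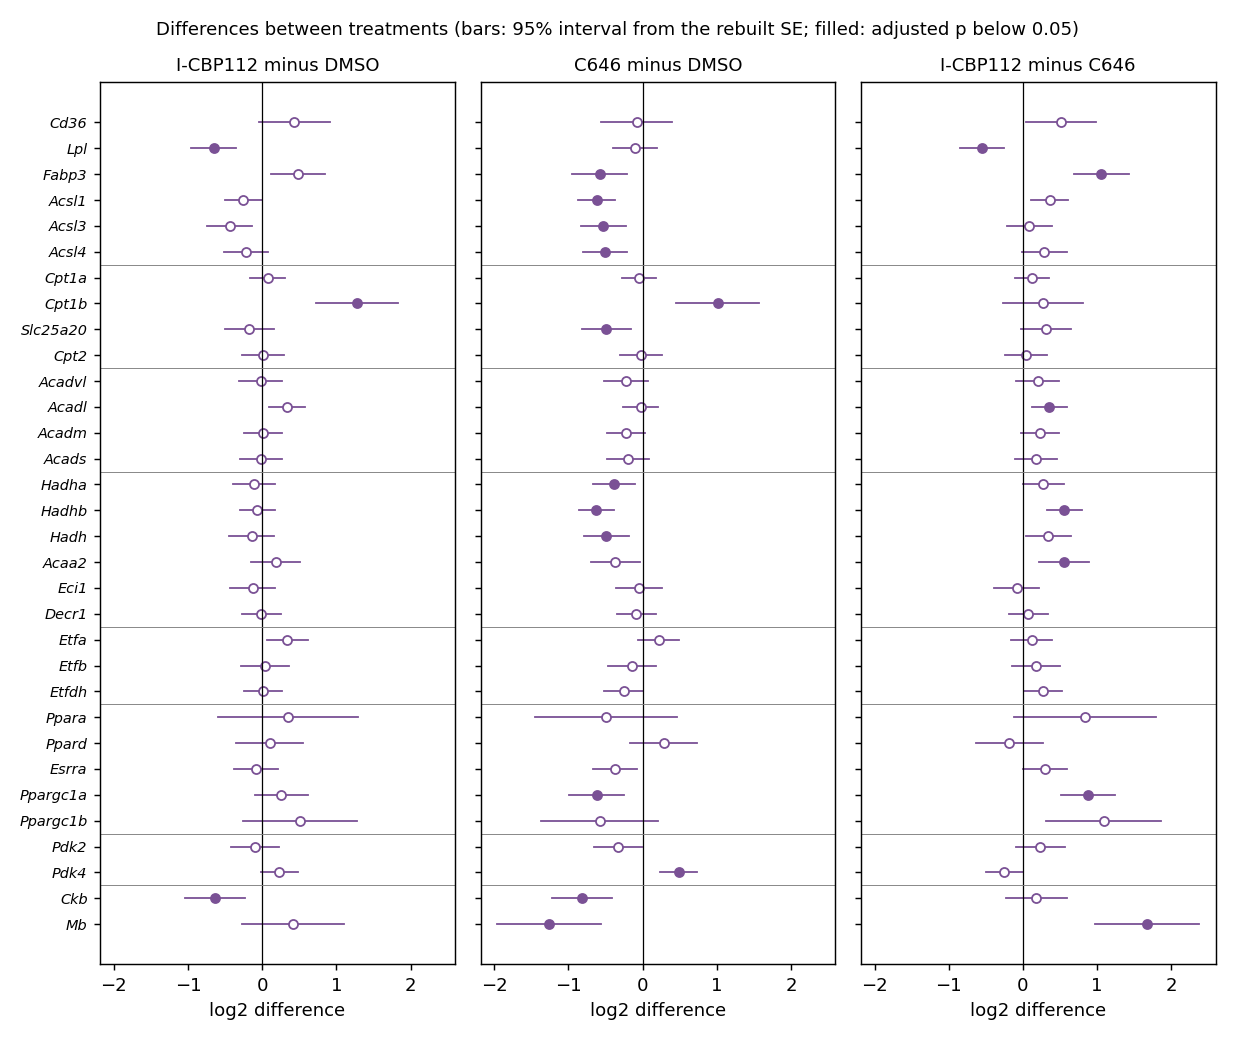
Differences between treatments in log2 fold change for the 32 tested genes, 1 panel a pair; bars are intervals at 95% from the rebuilt standard error, and filled points have an adjusted p below 0.05. Cpt1b lies to the right in both pairs with DMSO, and Mb, Fabp3 and Ppargc1a lie to the right for I-CBP112 minus C646.

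Other genes of energy metabolism were counted in 8 lists, and C646 gave 0 calls in each list. The background was again 8.07% of tested genes higher and 7.9% lower with DMSO, and 4.65% and 5.25% with I-CBP112. Of 18 citric acid cycle genes, 7 rose and 0 fell with DMSO and 5 rose and 0 fell with I-CBP112, with medians of 0.31 and 0.30. Mdh1, cytosolic malate dehydrogenase, rose by 0.64 ± 0.14 and 0.75 ± 0.14 in the authors' deposited table. Of 23 genes of pyruvate and glucose handling, 6 rose and 2 fell with DMSO and 5 rose and 0 fell with I-CBP112, with medians of 0.25 and 0.11. Ldhb, the heart-type lactate dehydrogenase, rose by 1.44 ± 0.14 and 1.26 ± 0.14, and Pfkm, muscle phosphofructokinase, by 0.95 ± 0.14 and 0.75 ± 0.14, while Hk2, a hexokinase of muscle and fat, fell by 1.40 ± 0.24 with DMSO, all in the authors' deposited table.

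In the lists nearest to fatty acids themselves, calls went both ways. In the mitochondrial and peroxisomal lists they were few, near the shares of all tested genes. Of 29 further genes of mitochondrial beta-oxidation and related steps, 1 rose and 3 fell with DMSO. With I-CBP112, 1 rose and 2 fell. The medians were 0.09 with DMSO and 0.08 with I-CBP112. With DMSO, Gcdh, of lysine breakdown, rose by 0.48 ± 0.17 and the uncoupling protein Ucp2 fell by 1.38 ± 0.17 in the authors' deposited table. Of 19 peroxisomal genes, 2 rose and 1 fell with DMSO and 1 rose and 1 fell with I-CBP112, with medians of 0.10 and 0.12; Crat, carnitine acetyltransferase, rose by 0.42 ± 0.13 and 0.37 ± 0.13 in the authors' deposited table. Of 20 genes of uptake and the lipid droplet, 4 rose and 9 fell with DMSO and 1 rose and 4 fell with I-CBP112, with medians of -0.47 and -0.08. In that list Fabp5, a fatty acid carrier, rose by 0.58 ± 0.19 and the droplet coat protein Plin4 fell by 2.34 ± 0.38 with DMSO, and Mgll, a monoglyceride lipase, fell by 0.96 ± 0.16 with I-CBP112, in the authors' deposited table. Adipocyte markers, which overlap this list, had the medians given beside Lpl, and their part in it was not tested.

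Of 7 genes of ketone metabolism, 1 rose and 2 fell with each of DMSO and I-CBP112, with medians of -0.04 and 0.13. Bdh1, a mitochondrial hydroxybutyrate dehydrogenase, rose by 1.23 ± 0.43 with I-CBP112 in the authors' deposited table. Of 32 partners of the nuclear receptors, 3 rose and 1 fell with DMSO and 1 rose and 0 fell with I-CBP112. Such counts lay near the shares of all tested genes, and the medians were 0.00 and -0.03. The gene that rose with I-CBP112 was Lpin1, a lipid phosphatase that also acts with PGC-1α, by 0.67 ± 0.12 in the authors' deposited table. Of 12 genes of creatine and adenylate handling, 4 rose and 3 fell with DMSO and 3 rose and 1 fell with I-CBP112, with medians of -0.10 and 0.06; Slc25a4, the ADP/ATP carrier of heart and muscle, rose by 0.62 ± 0.14 and 0.68 ± 0.14, and Cygb, cytoglobin, fell by 1.65 ± 0.23 and fell by 1.38 ± 0.22 in the authors' deposited table.

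**Figure D4:**
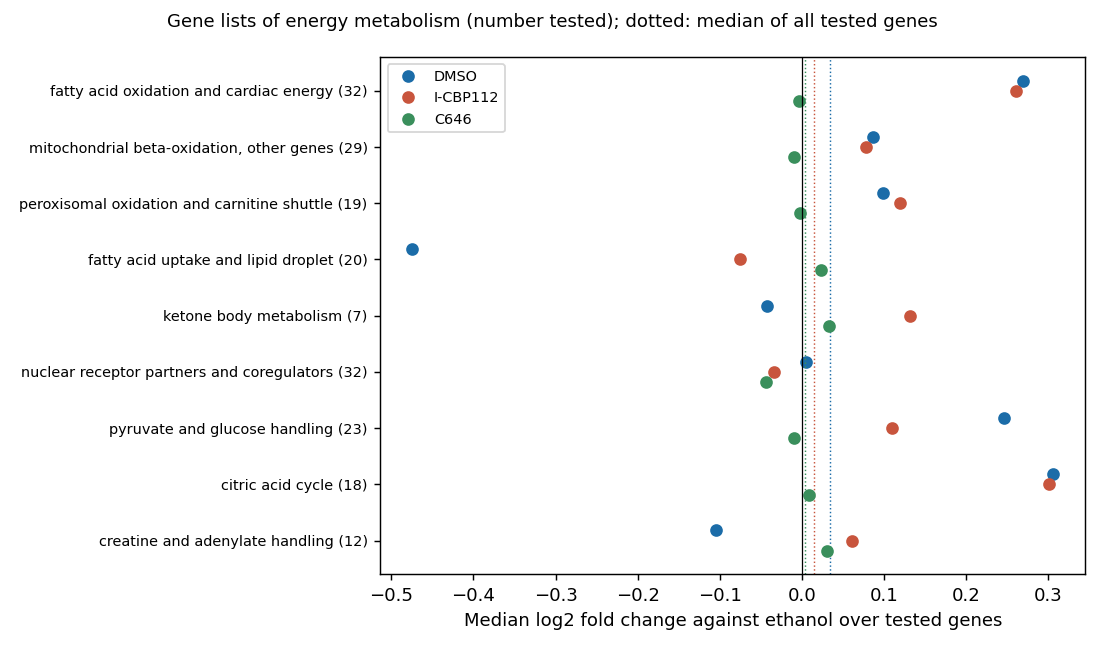
Median log2 fold change against ethanol over the tested genes of each list (number tested in parentheses), from the authors' deposited table; dotted lines are the medians of all tested genes. The citric acid cycle lies at 0.31 and 0.30 with DMSO and I-CBP112, uptake and the lipid droplet at -0.47 with DMSO, and C646 lies near 0 throughout.

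Genes with the pattern most like that of Fabp3 and Pdk4 were sought by the Euclidean distance over the 3 log2 fold changes among 2851 genes with a call against ethanol. Nearest to Fabp3 were Rragd, Plcg2 and Aplp1, at 0.0678, 0.0788 and 0.0920. Nearest to Pdk4 were Nme2, Arhgap23 and Kctd5, at 0.0238, 0.0304 and 0.0406. All of these distances were smaller than the errors of the fold changes themselves, 0.19 for Fabp3 and 0.13 for Pdk4 with DMSO in the authors' deposited table, so the order of the neighbours is not resolved. Ckm had an error of 1.10 there, and its nearest genes are not listed. All distances rest on 4 group means that share the ethanol libraries.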

How the data were processed

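RNA of 8 libraries, 2 for each of 4 treatments, was analysed from the authors' 3 comparison tables. Per the submitters' processing notes, kallisto 0.43.1 and DESeq2 (no version given) were used, with build GRCm38.p5. The deposited signal is the authors' mean normalised count over all libraries, the same in all 3 tables. The deposited log2 fold changes and standard errors, the Wald score and the p-value and adjusted p (Benjamini-Hochberg) are the authors' DESeq2 values; 14830 genes, with a mean count of 26.1 or more, have an adjusted p with DMSO and I-CBP112, and 34250 with C646. The tables name no reference, and ethanol is inferred. The treatment label set each library's group.

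Group means were rebuilt as 4 times the overall mean, shared out by the 3 fold changes. Dispersions were rebuilt from the standard errors, 1 per gene; from the other 2 tables they predicted each table's error to within 1% for 97.6%, 97.8% and 97.6% of genes. Treatments were compared by the difference of fold changes over the rebuilt error, two-sided normal p, adjusted over the tested genes (Python 3.11.15, scipy 1.17.1). The calculation was run on simulated counts whose errors were built by the same formula from known dispersions. That run checks the arithmetic and not the error model. Positions, lengths (longest CCDS transcript) and overlaps are from GENCODE M21 on GRCm38, and promoters from RefSeq. Named genes of each list are up to 2 with the highest and 2 with the lowest change among those past the threshold with a mean count of 50 or more, of which some are printed and some are not reported here. The lists are other mitochondrial beta-oxidation with related steps, peroxisomal oxidation, uptake and lipid droplet, and ketone metabolism. The rest are receptor partners, pyruvate and glucose, citric acid cycle, and creatine and adenylate handling. Marker lists are of cardiomyocytes, fibroblasts, skeletal muscle, smooth muscle, adipocytes, macrophages and endothelium. The members and lists were chosen with earlier results of these data known. Alternatives varied the threshold, the filter, the scaling, the reference distribution and the standard error.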

Additional observations from a re-analysis of the deposited data

How the results depend on the processing

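Calls among the members depended most on the error model, since each group had 2 libraries. When the authors' statistics were read against a t distribution (4 degrees of freedom), the members called fell from 11 to 0 with DMSO and from 8 to 0 with I-CBP112. Nearly all genes were lost as well, with 1 and 0 called in all. Even Actn2, with a Wald statistic of 20.1 with DMSO, was not called, so this setting cannot tell the members from other genes. An adjusted p below 0.01 left 7 with DMSO, and asking for a 1.5-fold change as well left 4 with DMSO (Hadhb, Ppargc1a, Ckb and Mb) and 5 with I-CBP112. With an upper bound on the standard error that ignores the libraries shared by the tables, the counts went from 3 to 0 for I-CBP112 over DMSO, from 13 to 2 (Acsl1 and Hadhb) for C646 over DMSO and from 7 to 4 for I-CBP112 over C646. With C646 the count was 0 under every alternative run, including an adjustment over the 14830 genes alone, which was added after the data were seen. The other counts stayed within 1.5 times; without a filter on the mean count, Fabp3 and Mb were lost with DMSO and Cpt1b with I-CBP112. Centring on the median gene moved all genes by at most 0.03 on the log2 scale, kept 38 calls of single members, ended 4 and reversed none; scaling to totals kept 18 of those against ethanol and ended 1. No paired analysis was possible because the tables carry no values of single libraries, and for the same reason no library could be left out.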

Other observations

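Markers of cells other than fibroblasts and cardiomyocytes give further context for the energy genes. Of all tested genes, 8.07% rose and 7.9% fell with DMSO, and 4.65% rose and 5.25% fell with I-CBP112. Of 9 smooth muscle markers, 1 rose and 7 fell with DMSO and 1 rose and 1 fell with I-CBP112, and their sums were 131396 normalised counts in ethanol, 90716 in DMSO, 134823 under I-CBP112 and 129706 under C646. Actg2, an actin of visceral smooth muscle, fell by 2.30 ± 0.20 with DMSO, and Myocd, the myocardin coactivator of heart and smooth muscle, rose by 1.06 ± 0.17 with DMSO and by 0.65 ± 0.17 with I-CBP112 in the authors' deposited table. Of 3 endothelial markers tested, 2 fell with DMSO and 2 with I-CBP112; Cldn5 and Gpihbp1, which holds lipoprotein lipase on capillary walls, were at 0. Fabp4, the fatty acid carrier of fat cells, fell by 0.75 ± 0.19 with DMSO and fell by 0.95 ± 0.19 with I-CBP112 in the authors' deposited table, while the heart form Fabp3 rose in both. Their difference was not tested.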
